A study of Mus musculus with 6 samples.

Results

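The genes described here are 39 genes of central carbon metabolism, which carry glucose through glycolysis and pyruvate through the citric acid cycle. They were taken by symbol from the count tables of 6 midbrain RNA libraries. All 39 symbols were found among 32531 gene entries, and all 39 passed the filter on low counts, which kept 17197 genes for testing. The set holds 17 glycolytic enzymes (lactate dehydrogenases included), 19 genes of mitochondrial pyruvate import, the pyruvate dehydrogenase complex and the citric acid cycle, and 3 further enzymes of the malate-aspartate shuttle. The libraries come from adult, untreated control mice of the Lhx5-TRAP line DT154, in which EGFP fused to ribosomal protein Rpl10a tags the polysomes of cells where Lhx5 regulatory sequences are active. Translating ribosome affinity purification (TRAP) with anti-EGFP antibodies gave 3 immunopurified libraries (IP). The other 3 libraries are titled input, while a second label of the same samples reads unbound, so they may be whole homogenate or what the beads left behind. All 6 libraries share the transgene, the tissue and the absence of treatment. DT154 is a single transgenic line, and neither the number of mice behind each library nor their exact age was given in the sources used here. The p-values therefore measure the spread between these libraries, which may be technical.

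Glycolysis splits glucose in the cytosol into pyruvate, with small yields of ATP and NADH. Pyruvate is either reduced to lactate or carried into mitochondria, where the pyruvate dehydrogenase complex makes acetyl-CoA for the citric acid cycle, which in turn feeds NADH and succinate to the respiratory chain. In brain, many steps have more than a single gene: some isoenzymes are mainly neuronal, such as the enolase Eno2, and others are rich in glia, such as the aldolase Aldoc of astrocytes. The malate-aspartate shuttle moves the electrons of cytosolic NADH into mitochondria and is known to be prominent in neurons. The comparison asks which of these messages were on tagged ribosomes in a different share than in the surrounding midbrain RNA.

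Each library held between about 38058200 and 45841500 reads assigned to genes. Lhx5, whose regulatory sequences drive the tag, stood at a log2 fold change of 3.93 in IP over input (SE 0.23), with an adjusted p of 1.29e-05 in the edgeR fit. A list of 8 neuronal markers summed to 18915 to 23828 CPM (counts per 1000000 assigned reads, with TMM scaling) in IP and 8665 to 12263 in input, and 7 of the 8 were higher in IP. Snap25 alone made up most of these sums, at a mean of 17916 CPM in IP and 8385 in input. Of 11 astrocyte markers 10 were lower, with sums of 391 to 498 CPM in IP and 1738 to 2402 in input. Of 10 oligodendrocyte markers 10 were lower, with 337 to 499 CPM against 4371 to 5201. Lower in IP were also 9 of 10 microglial markers (13.3 to 26.2 CPM against 68.9 to 111) and 9 of 10 vascular markers (5.38 to 6.89 CPM against 34.2 to 53.0). The microglial gene Trem2 had no count in IP replicate 3. Purkinje cell markers summed to 1834 CPM in IP replicate 2 and to at most 601 in any other library. Striatal markers summed to 975 CPM in input replicate 3 and to at most 281 elsewhere, and choroid plexus and ependymal markers to 1326 CPM there and to at most 367 elsewhere. Of those 1326 CPM in input replicate 3, Ttr alone gave 1266. In bulk RNA, fewer cells of a type and less RNA per cell cannot be told apart. The part of these marker shifts in the values below was not tested.

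Most of the metabolic genes were higher in IP, by less than 2-fold in most cases. Of the 39, 28 rose, 3 fell and 8 did not pass at an adjusted p of 0.05 in edgeR's quasi-likelihood test, adjusted by Benjamini-Hochberg over all tested genes. The background was 26.0% of all tested genes called higher and 27.9% called lower (53.9% in either direction), so the 71.8% called higher lies above it and the 7.69% called lower lies below it. Among the 13350 genes at least as abundant as the lowest of the 39, 32.5% were called higher and 24.5% lower. Over all genes, 48.2% of the calls were higher in IP. Upper-quartile scaling made this 38.1%, and with it 23 of the 39 rose and 3 fell. Over all 17197 tested genes, that scaling gave 3429 higher and 5567 lower. The median log2 fold change of the 39 was 0.60, beside -0.01 for all tested genes and 0.14 for those 13350 more abundant genes. With upper-quartile scaling the median of the 39 was 0.45 and that of all tested genes -0.17.

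**Figure D1:**
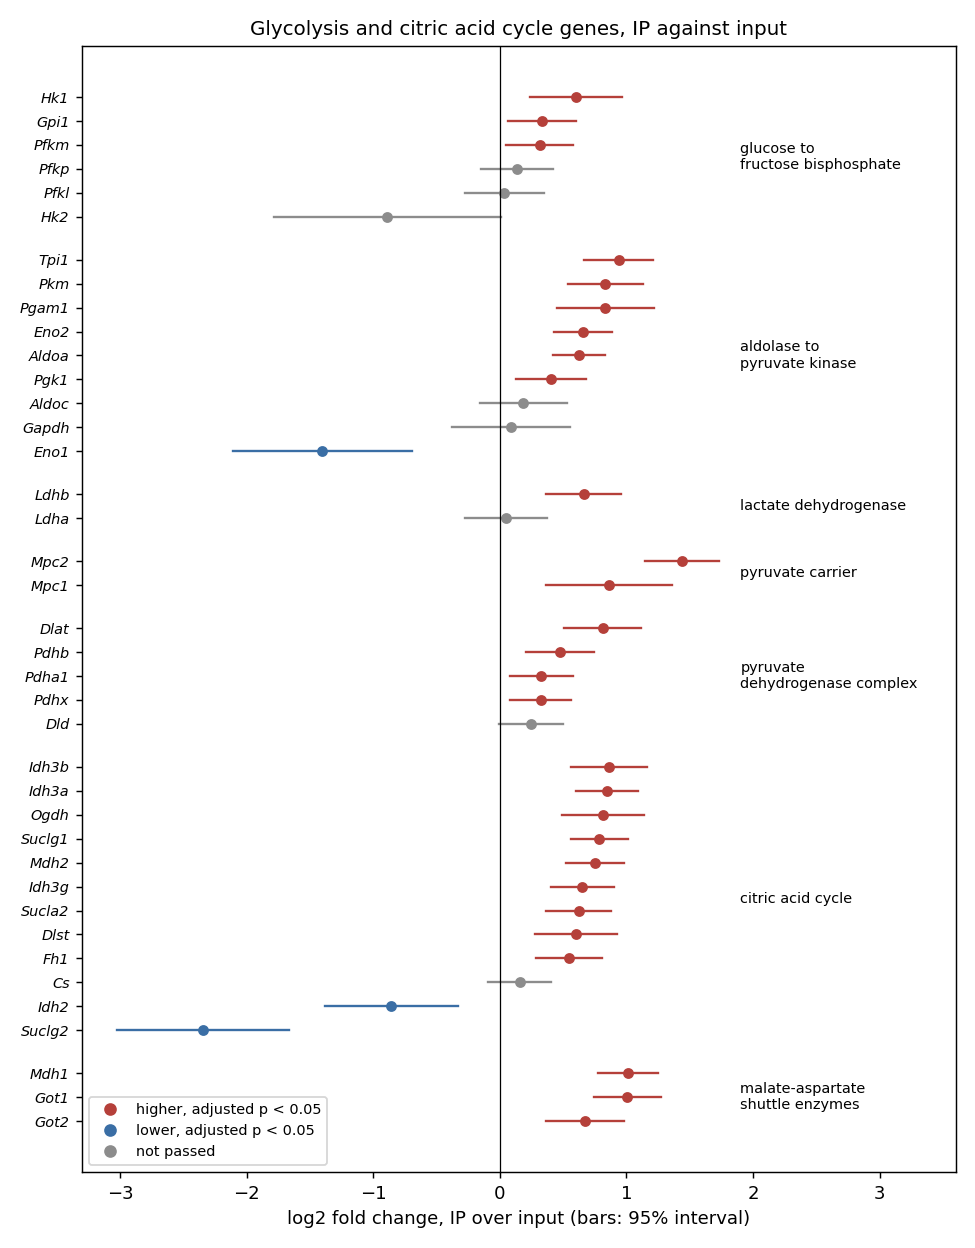
Log2 fold change of IP over input for each of the 39 genes, grouped by step of the pathway, with 95% intervals from the edgeR fit (3 libraries a group). Red points passed as higher, blue points as lower and grey points did not pass at an adjusted p of 0.05; 28 points are red, and the 3 blue points are Eno1, Idh2 and Suclg2.

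The 3 IP libraries lay above all 3 input libraries for 29 of the 39 genes (30.7% of all tested genes) and below them for 3 (32.8% of all tested genes). Together the 39 genes took 0.953% ± 0.0590 of the gene counts in IP and 0.657% ± 0.0177 in input (mean ± SD of 3 libraries each). A change shown to exceed 2-fold (glmTreat in the same fit) was found upward for Mpc2 alone (2.25% of all tested genes and 2.73% of those at least as abundant as the lowest of the 39) and downward for Suclg2 alone (12.9% of all tested genes).

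At the entry of glycolysis, 3 of 6 genes rose and the others did not pass. Hk1, the hexokinase that phosphorylates glucose at the mitochondrial surface in brain, gave 93.9, 80.6 and 116 CPM in IP replicates 1, 2 and 3 and 57.2, 73.6 and 60.9 CPM in the input replicates. The groups did not overlap, although IP replicate 2 lay close to input replicate 2. The log2 fold change of Hk1 was 0.60 (SE 0.16, adjusted p 0.0126 by edgeR's quasi-likelihood test), and without input replicate 1 it was 0.53 with an adjusted p of 0.0506. Hk2, the inducible hexokinase, was the least abundant of the 39 genes per length, at 0.932, 1.68 and 0.886 CPM in IP and 1.63, 2.32 and 2.54 in input. IP replicate 2 overlapped the lowest input library. Its log2 fold change was -0.89 (SE 0.39), with a 95% interval from -1.79 to 0.01 and an adjusted p of 0.0867 in the edgeR fit. Without IP replicate 2, Hk2 stood at -1.28 and passed (adjusted p 0.0314).

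The phosphofructokinases commit sugar phosphate to glycolysis and work as tetramers of muscle (Pfkm), liver (Pfkl) and platelet (Pfkp) type subunits. Pfkm gave 144, 135 and 157 CPM in IP and 130, 113 and 108 in input, and the groups did not overlap. It was higher by 0.31 (SE 0.12) with an adjusted p of 0.0478 in the edgeR fit, just inside the threshold, and it stayed inside in 3 of 16 alternative settings. Without input replicate 2, input replicate 3 or any IP replicate, its adjusted p in the edgeR fit was 0.0683 to 0.143. Pfkp gave 115, 94.0 and 117 CPM in IP against 99.3, 107 and 90.4 in input, at a log2 fold change of 0.14 with an interval from -0.15 to 0.42. Pfkl gave 34.2, 32.2 and 42.3 CPM in IP against 33.3, 35.7 and 37.1 in input, at 0.04 with an interval from -0.27 to 0.35. The libraries of the groups overlapped for Pfkp and for Pfkl. Gpi1, which turns glucose 6-phosphate into fructose 6-phosphate, was higher by 0.33 (SE 0.12, adjusted p 0.0422 in the edgeR fit) and passed in 6 of 16 alternative settings. It did not pass when any library other than IP replicate 2 was left out (adjusted p 0.0502 to 0.151 in the edgeR fit).

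From aldolase to pyruvate kinase, 6 of 9 genes rose, Eno1 fell, and Aldoc and Gapdh did not pass. Tpi1, which interconverts the triose phosphates, had the largest rise of this stretch, with 353, 295 and 353 CPM in IP and 190, 172 and 160 in input. Its log2 fold change was 0.94 (SE 0.12, adjusted p 0.000390 in the edgeR fit), and all IP libraries lay well above all input libraries. Pkm, the pyruvate kinase gene expressed in brain, rose by 0.83 (SE 0.13) from 241 ± 16.8 to 430 ± 63.2 CPM (mean ± SD of 3 libraries each). Pgam1, phosphoglycerate mutase, rose by 0.83 (SE 0.17), and Pgk1, phosphoglycerate kinase, which makes the first ATP of the pathway, by 0.40 (SE 0.12). Pgk1 passed in 9 of 16 alternative settings and Pgam1 in all 16. Without input replicate 2, input replicate 3 or IP replicate 1, Pgk1 had an adjusted p of 0.0544 to 0.0710 in the edgeR fit. Gapdh, glyceraldehyde phosphate dehydrogenase, did not pass, at 0.09 with an interval from -0.38 to 0.55.

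The aldolases, which split fructose bisphosphate, differed in their values. Aldoa, the form made in most tissues, gave 819, 809 and 826 CPM in IP and 520, 550 and 522 in input. It rose by 0.62 (SE 0.09, adjusted p 0.000725 in the edgeR fit), with little spread inside either group. Aldoc, known from astrocytes and from a subset of Purkinje cells, gave 579, 606 and 631 CPM in IP and 629, 554 and 414 in input. Input replicate 3 was low and input replicate 1 reached the level of the highest IP library, so the groups overlapped. Its log2 fold change of 0.19 (SE 0.15) did not pass (adjusted p 0.328, interval from -0.16 to 0.53), and it was -0.017 without IP replicate 2 and input replicate 3. The 11 astrocyte markers had a median of -3.02 in the same fit. Of these, 10 were lower, and S100b, at -0.34, did not pass. The part of astrocytes in the Aldoc values was not tested.

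The enolases, which make phosphoenolpyruvate, moved apart. Eno2, the neuron-specific enolase, gave 781, 713 and 835 CPM in IP and 497, 503 and 476 in input, and rose by 0.66 (SE 0.10, adjusted p 0.000935 in the edgeR fit). Eno1, the enolase of most other cells, gave 1.24, 1.20 and 1.05 CPM in IP and 3.77, 2.84 and 2.62 in input. It fell by 1.40 on the log2 scale (SE 0.31, adjusted p 0.00523 in the edgeR fit), and no IP library reached an input library. The value of Eno1 rests on 45 to 52 reads per IP library and 106 to 157 per input library. Another gene, Eno1b, has a nearly identical sequence, and reads that align to both are in neither count. The first 90 coding bases of the 3 genes (GENCODE M21 transcripts, GRCm38) are shown to make this visible, with capitals where a base differs from Eno1.
Eno1: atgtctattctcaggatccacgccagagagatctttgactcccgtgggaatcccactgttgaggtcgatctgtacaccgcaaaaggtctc
Eno1b: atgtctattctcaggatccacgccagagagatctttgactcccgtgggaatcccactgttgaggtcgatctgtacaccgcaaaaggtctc
Eno2: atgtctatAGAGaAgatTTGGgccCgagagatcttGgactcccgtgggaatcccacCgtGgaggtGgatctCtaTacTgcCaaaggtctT
In this stretch Eno1b has 0 differences from Eno1 and Eno2 has 19. Over the 1302 coding bases, Eno1 and Eno1b were 99.4% identical, with a longest identical run of 725 bases, while Eno2 and Eno1 were 75.1% identical, with a longest run of 20. Reads within those long identical runs cannot be assigned to Eno1 or Eno1b, while Eno2 has no such long run in common with Eno1. Eno1b itself was counted with 21 to 40 reads per library and had a log2 fold change of -0.42 (SE 0.45), which did not pass. The protein-coding gene Eno1 spans 150236721 to 150248879 of chromosome 4 (GRCm38).

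The lactate dehydrogenases interconvert pyruvate and lactate. Ldhb, whose subunit favours lactate oxidation, gave 406, 352 and 485 CPM in IP and 274, 257 and 255 in input. It rose by 0.66 (SE 0.13, adjusted p 0.00314 in the edgeR fit), and the groups did not overlap. Ldha, whose subunit favours lactate formation, gave 92.5, 96.5 and 91.6 CPM in IP and 76.6, 85.4 and 109 in input. The input libraries lay on both sides of the IP libraries, and the log2 fold change of 0.05 did not pass (interval from -0.27 to 0.37).

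Both genes of the mitochondrial pyruvate carrier rose. Mpc2 gave 165, 139 and 180 CPM in IP and 64.5, 56.6 and 57.1 in input. It rose 2.71-fold, or by 1.44 on the log2 scale (SE 0.13, adjusted p 7.36e-05, and 0.00891 for a change over 2-fold, both in the edgeR fit). This was the largest rise of the 39 genes, and 97.1% of all tested genes had a lower log2 fold change. The protein-coding gene Mpc2 spans 165460637 to 165481214 of chromosome 1 (GRCm38). Mpc1, its partner in the carrier, gave 7.48, 5.96 and 8.54 CPM in IP and 4.52, 3.87 and 3.68 in input, and rose by 0.86 (SE 0.22, adjusted p 0.00994 in the edgeR fit). Of the exonic bases of Mpc1, 23.1% also belong to an antisense gene, the largest such share among the 39.

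Of the 5 genes of the pyruvate dehydrogenase complex, 4 rose and 1 did not pass. Dlat, the acetyltransferase core, had the largest rise, with 275, 237 and 325 CPM in IP and 152, 154 and 170 in input (log2 fold change 0.81, SE 0.13, adjusted p 0.00128 in the edgeR fit). The decarboxylase subunits Pdha1 and Pdhb were higher by 0.33 (SE 0.11) and 0.47 (SE 0.12), and Pdhx, which anchors Dld to the core, by 0.32 (SE 0.11). Pdha1 and Pdhx passed in 8 of 16 alternative settings each, and Pdhb and Dlat in all 16. Pdha1 was lost when any library other than IP replicate 2 was left out (adjusted p 0.0582 to 0.103 in the edgeR fit). Pdhx was lost without input replicate 1, input replicate 2, IP replicate 1 or IP replicate 3 (0.0504 to 0.106). Dld, the dihydrolipoamide dehydrogenase that also serves the oxoglutarate dehydrogenase complex, had the smallest value, with 174, 150 and 183 CPM in IP and 145, 145 and 137 in input. Its IP libraries lay above its input libraries, but the log2 fold change of 0.25 (interval from -0.01 to 0.50) did not pass (adjusted p 0.0901 in the edgeR fit), and it passed without IP replicate 2 (adjusted p 0.0491).

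In the citric acid cycle, 9 of 12 genes rose, Idh2 and Suclg2 fell, and Cs did not pass. The 3 subunit genes of NAD-dependent isocitrate dehydrogenase, a regulated step of the cycle, rose together: Idh3a by 0.85 (SE 0.11), Idh3b by 0.86 (SE 0.13) and Idh3g by 0.65 (SE 0.11). Idh3b had the largest value of the cycle, with 414, 379 and 491 CPM in IP and 243, 253 and 210 in input. Idh2, the NADP-dependent mitochondrial isocitrate dehydrogenase, went the other way, with 8.08, 9.21 and 9.75 CPM in IP and 12.5, 14.2 and 22.3 in input. It fell by 0.86 (SE 0.23, adjusted p 0.0129 in the edgeR fit), and the highest IP library stayed below the lowest input library. Ogdh and Dlst of the oxoglutarate dehydrogenase complex rose by 0.82 (SE 0.14) and 0.60 (SE 0.14). Fh1, fumarase, rose by 0.54 (SE 0.11), and Mdh2, the mitochondrial malate dehydrogenase, by 0.75 (SE 0.10). Cs, citrate synthase, did not pass, with a log2 fold change of 0.16 and an interval from -0.09 to 0.41.

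Succinyl-CoA ligase joins a shared alpha subunit (Suclg1) to either of a pair of beta subunits, Sucla2 for the ATP-forming enzyme or Suclg2 for the GTP-forming enzyme. Suclg1 rose by 0.79 (SE 0.10). Sucla2 gave 196, 171 and 214 CPM in IP and 130, 123 and 124 in input, and rose by 0.62 (SE 0.11, adjusted p 0.00202 in the edgeR fit). Suclg2 gave 1.60, 1.0 and 0.956 CPM in IP and 5.24, 5.98 and 6.94 in input. It was 5.09-fold lower in IP, or -2.35 on the log2 scale (SE 0.30, adjusted p 0.000382, and 0.00428 for a change over 2-fold, both in the edgeR fit). Suclg2 was thus the largest fall of the 39 genes, in a complex whose other subunit genes were higher. It rests on 41 to 67 reads per IP library and 218 to 281 per input library. A pseudogene shares 38.7% of the Suclg2 transcript at 95% identity or more. The protein-coding gene Suclg2 spans 95473009 to 95718800 of chromosome 6 (GRCm38). The coding sequences of Sucla2 and Suclg2 were 61.1% identical, with a longest identical run of 12 bases.

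The 3 shuttle enzymes all rose. Mdh1, the cytosolic malate dehydrogenase, gave 1463, 1564 and 1700 CPM in IP and 786, 820 and 735 in input. Its log2 fold change was 1.01 (SE 0.10, adjusted p 0.000137 in the edgeR fit). Got1, the cytosolic aspartate aminotransferase, gave 711, 601 and 712 CPM in IP and 360, 341 and 306 in input, also at 1.01 (SE 0.12, adjusted p 0.000242 in the edgeR fit). For Mdh1 and Got1 each IP library was far above every input library, and neither change was shown to exceed 2-fold (adjusted p 0.692 and 0.736 by glmTreat in edgeR). Got2, the mitochondrial aminotransferase, gave 38.3, 33.5 and 43.9 CPM in IP and 25.3, 22.8 and 24.6 in input, and rose by 0.67 (SE 0.14, adjusted p 0.00338 in the edgeR fit).

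Set side by side, glycolysis and the mitochondrial genes differed in how many members passed, without a test between the lists. Glycolysis had 10 of 17 genes higher, 1 lower and 6 not past the threshold. Its median log2 fold change was 0.33, with a range from -1.40 to 0.94, beside the 0.14 of genes at least as abundant as the lowest of the 39. The mitochondrial list had 15 of 19 higher, 2 lower and 2 not past the threshold, at a median of 0.62 with a range from -2.35 to 1.44. Summed over genes, glycolysis stood at 4136 ± 305 CPM in IP and 2861 ± 154 in input, and the mitochondrial genes at 3589 ± 390 and 2263 ± 52.4 (mean ± SD of 3 libraries each). Reads that also align to near-identical copies elsewhere are not counted, and such copies are unevenly spread over the lists. In glycolysis they cover 55.0% to 88.0% of the transcripts of Gapdh, Eno1, Ldhb, Pgk1, Pkm, Gpi1 and Ldha. In the mitochondrial list they cover 71.2% for Pdhb and at most 38.7% for any other gene. The part of this imbalance in the pass counts, medians and sums was not tested. The 6 glycolytic genes that did not pass were Hk2, Pfkl, Pfkp, Aldoc, Ldha and Gapdh, of which all but Gapdh have another form of the same enzyme that was higher. For Pfkl and Pfkp that form is Pfkm, which kept its call in only 3 of 16 alternative settings. The count ratios of Pfkm to Pfkl and to Pfkp, given below, overlapped between IP and input. With upper-quartile scaling the glycolytic median was 0.18, with 7 genes higher, and the mitochondrial median was 0.47, with 13 higher. Without IP replicate 2 and input replicate 3, the libraries with the highest sums of Purkinje cell markers and of striatal and choroid plexus markers, 8 glycolytic and 14 mitochondrial genes were higher. Fewer genes were also called higher over the whole data in these settings. The main fit called 4467 of 17197 tested genes higher, upper-quartile scaling 3429 of 17197, and the fit without those libraries 3490 of 17411.

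Ratios of isoenzyme counts within a library do not depend on how libraries are scaled, and 8 ratios were compared between IP and input. Sucla2 over Suclg2 was 122, 171 and 224 in the IP replicates and 24.8, 20.6 and 17.9 in the input replicates, 8.0-fold apart on the mean log2 scale. Eno2 over Eno1 was 628, 596 and 796 in IP and 132, 177 and 182 in input, a 4.13-fold difference. These counts are not corrected for length or for unassigned reads, so the ratio does not show which enolase is more abundant. The part of unassigned reads in its difference between groups was not tested. Hk1 over Hk2 was 101, 47.9 and 131 in IP and 35.0, 31.8 and 23.9 in input, a 2.87-fold difference with IP replicate 2 nearest to input. Ldhb over Ldha was 4.39, 3.65 and 5.30 in IP and 3.58, 3.01 and 2.33 in input, a 1.5-fold difference, and the lowest IP ratio was barely above the highest input ratio. Aldoa over Aldoc was 1.41, 1.34 and 1.31 in IP and 0.827, 0.994 and 1.26 in input, a 1.34-fold difference. In these 5 pairs the groups did not overlap, each with an exact two-sided permutation p of 0.1, the smallest that 3 against 3 allows, and a Benjamini-Hochberg value of 0.16 over the 8 ratios. None of the ratios can therefore pass at 0.05 by this test.

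The phosphofructokinase ratios overlapped between groups. Pfkm over Pfkl differed by 0.29 on the log2 scale and Pfkm over Pfkp by 0.18 (exact permutation p 0.2 each), and Pfkp over Pfkl by 0.11 (exact permutation p 0.6). Leaving out single libraries moved no ratio to the other direction.

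**Figure D2:**
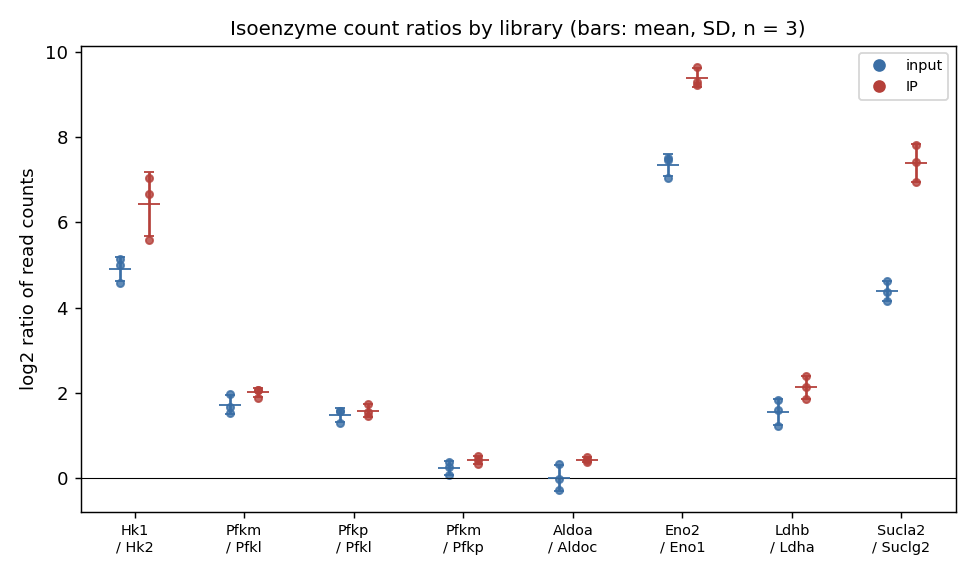
Log2 ratio of read counts of 2 isoenzymes in each library, with the mean and SD of 3 libraries, blue for input and red for IP. Sucla2 over Suclg2 and Eno2 over Eno1 lie farthest apart (3.0 and 2.05 on the log2 scale), and the 3 phosphofructokinase ratios overlap between groups.

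**Figure D3:**
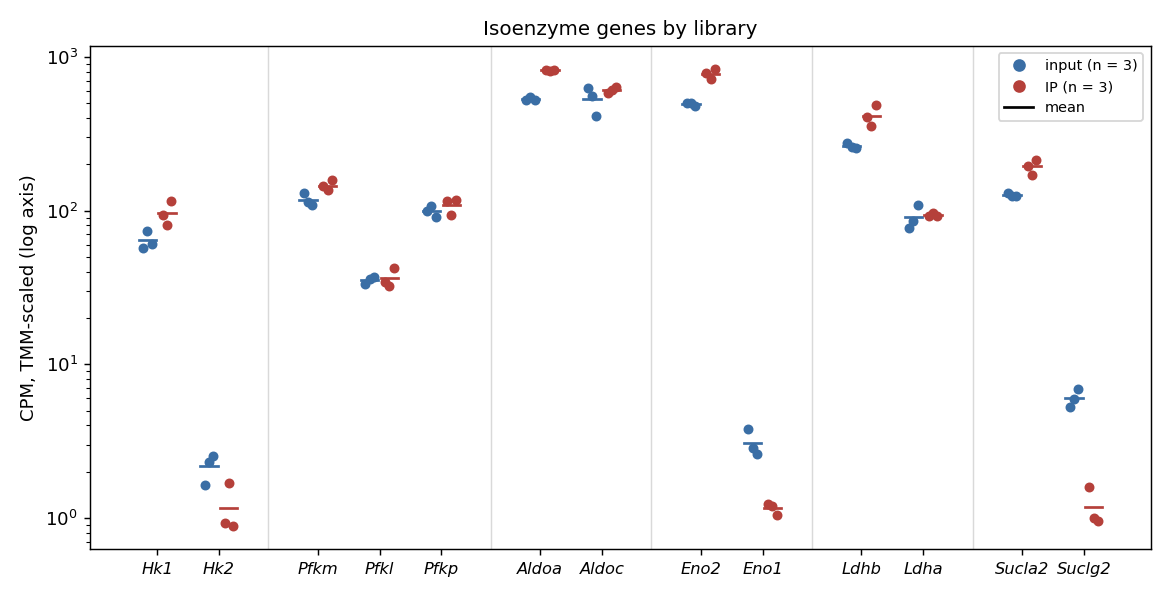
CPM of the 13 isoenzyme genes in each library on a log axis, blue for input and red for IP, with the mean as a short line. Hk2, Eno1 and Suclg2 lie below 10 CPM in all libraries and lower on average in IP, while their partner genes lie above 50 CPM and higher in IP. The Eno1 values leave out reads that also align to near-identical copies elsewhere.

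Levels of different genes were compared per kilobase of exon, using the merged exons of all GENCODE M21 transcripts of a gene. Mdh1 was highest in both groups, at 614 CPM per kb in IP and 304 in input, followed by Aldoa at 281 and 182. Got1 (266 in IP), Ldhb (264), Aldoc (185) and Eno2 (165) came next in IP, and the same 6 genes were the highest in input. Among mitochondrial genes, Mdh2 was highest at 139 CPM per kb in IP and 82.5 in input, then Idh3b at 125 and 68.8. In the IP order, the neighbours Aldoa and Got1, Got1 and Ldhb, and Mdh2 and Idh3b differ in mean level per kb by less than the SD of at least a single member of the pair. In the input order the same holds for Ldhb and Aldoc and for Aldoc and Got1. At the low end, Hk2, Eno1 and Suclg2 lay at 0.196, 0.216 and 0.257 CPM per kb in IP. The Eno1 level leaves out reads that also align to near-identical copies, which cover 85.6% of its transcript, so its rank is uncertain. Other genes with such copies share this limit, among them Ldhb (76.8% covered) and Gapdh (88.0% covered, at 4.37 CPM per kb in IP). Merged exons include those of rare transcripts, so genes with many of them, such as Pfkp with 13401 exonic bases, appear lower than a single transcript would.

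**Figure D4:**
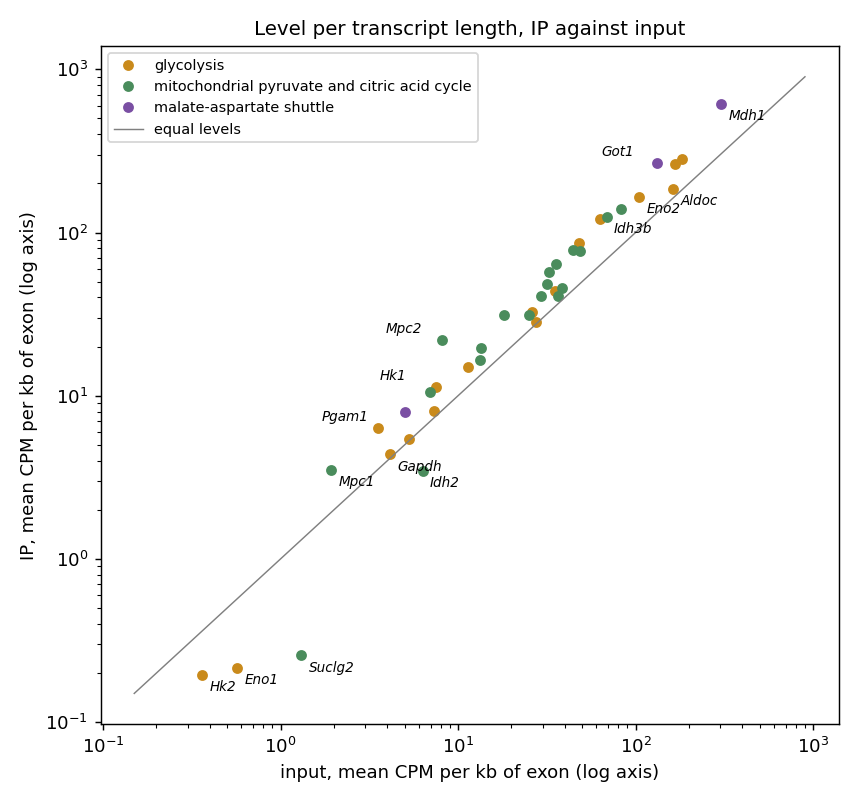
Mean CPM per kilobase of exon in IP (vertical, log axis) against input (horizontal, log axis) for the 39 genes, coloured by pathway, with a line of equal levels. Most points lie above the line, Mdh1 is highest on both axes, and Suclg2, Eno1, Hk2 and Idh2 lie below the line.

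Copies elsewhere in the genome limit what these levels mean. For 16 of the 39 genes, another gene or pseudogene holds a stretch of 100 bases or more at 95% identity or more, and reads that align to several places are not in the gene counts. Such alignments made up 44.2% ± 0.402 of all entries in the count tables in IP and 32.5% ± 0.596 in input (mean ± SD of 3 libraries each). Gapdh stood out, with stretches in 81 other genes, 77 of them pseudogenes, that together cover 88.0% of its transcript. Its 18.1 ± 2.24 CPM in IP and 17.0 ± 4.16 in input (mean ± SD of 3 libraries each) leave out reads that align to such copies. Over a 50% share of the transcript is covered for 9 genes, of which 6 were higher and 1 lower. Besides Gapdh, the largest shares were those of Eno1 (85.6%), Ldhb (76.8%), Got2 (72.5%), Pdhb (71.2%) and Pgk1 (68.8%). The 23 genes with no such stretch had 17 higher and 1 lower, at a median log2 fold change of 0.62. In 13 genes, up to 23.1% of exonic bases are shared with another annotated gene. Ambiguous reads made up 1.63% ± 0.0460 in IP and 9.35% ± 1.48 in input (mean ± SD of 3 libraries each). The part of unassigned reads in the fold changes was not tested.

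The wider pathway was taken as 80 further genes in 8 lists. Among 75 tested genes were 25 that rose, 10 that fell and 40 that did not pass, and their median log2 fold change was 0.01. The 33.3% called higher is near the 32.5% among genes at least as abundant as the lowest of the 39 (26.0% of all tested genes), and the 13.3% called lower is below the 24.5% and 27.9% of the same backgrounds. The counts of its smaller lists below are given as a description against these shares. Another 4 were removed by the low-count filter, and Tigar was not matched by symbol. Of 14 other citric acid cycle genes 7 rose and 7 did not pass, and those that rose include the succinate dehydrogenase subunits Sdha (log2 fold change 0.64, SE 0.12) and Sdhb (1.22, SE 0.10). Among pyruvate dehydrogenase kinases and phosphatases 2 of 7 rose and 1 fell. Pdk2, which inhibits the complex, rose by 0.55 (SE 0.12), and Pdk4, the starvation-induced kinase, fell by 2.16 (SE 0.25), from 13.8 ± 2.26 to 3.08 ± 0.815 CPM (mean ± SD of 3 libraries each).

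Of 10 genes of mitochondrial shuttles 5 rose and 3 fell. The 5 that rose are Slc25 carriers, and those that fell are the carrier Slc25a18 and the dehydrogenases Gpd1 and Gpd2. Slc25a12, an aspartate-glutamate carrier of the malate-aspartate shuttle, rose by 0.78 (SE 0.10), from 175 ± 6.55 to 301 ± 22.6 CPM (mean ± SD of 3 libraries each). Slc25a18, a glutamate carrier, had 2.15, 2.56 and 2.01 CPM in IP against 22.1, 19.6 and 14.4 in input and fell by 3.06 (SE 0.22), more than any of the 39 genes. Gpd2, of the glycerol phosphate shuttle, fell by 1.02 (SE 0.14). The glycerol phosphate dehydrogenase Gpd1, named after its values were seen, fell by 3.06 (SE 0.20), from 37.6 ± 0.384 to 4.52 ± 1.14 CPM (mean ± SD of 3 libraries each).

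Of 9 glucose and lactate transport genes 3 rose, 1 fell and 5 did not pass. Bsg, the basigin chaperone of monocarboxylate transporters, rose by 1.17 (SE 0.25), and Slc16a7, a monocarboxylate transporter, fell by 1.35 (SE 0.20). Of 5 tested regulators of glycolysis 1 rose and 2 fell. The bifunctional enzymes that set fructose 2,6-bisphosphate were Pfkfb3 (0.55, SE 0.16), Pfkfb2 (-0.65, SE 0.11) and Pfkfb4 (-0.97, SE 0.25). Of 12 tested further glycolytic isoenzymes 2 rose and 10 did not pass, with Ldhd, which oxidises D-lactate, at 0.64 (SE 0.15) and the liver pyruvate kinase gene Pklr at 1.57 (SE 0.51) from 0.222 to 0.666 CPM. Pklr rests on 8 to 11 reads per input library and 20 to 35 per IP library. Of the exonic bases, 42.2% in Ldhd and 22.0% in Pklr also belong to an antisense gene, Znrf1 and Hcn3. The part of these neighbours in the rises was not tested.

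In the pentose phosphate pathway 3 of 8 genes rose and 1 fell. Tkt, transketolase, rose by 0.62 (SE 0.10) and Pgls, the lactonase, by 1.25 (SE 0.19), while Taldo1, transaldolase, fell by 0.67 (SE 0.16). In glycogen metabolism 2 of 10 tested genes rose and 2 fell. Gyg, glycogenin, was higher by 0.58 (SE 0.15) and the liver phosphorylase gene Pygl by 0.76 (SE 0.24), and the muscle phosphorylase gene Pygm was lower at -0.75 (SE 0.26). The groups overlapped for Pygm, with 7.75 CPM in input replicate 3 and 8.53 in IP replicate 1. The adjusted p of each gene of the wider pathway named with a rise or fall was 0.0400 or less in the edgeR fit.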

How the data were processed

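RNA of 3 IP and 3 input midbrain libraries was analysed. The authors deposited raw read counts per gene symbol; the submitters' processing notes name STAR 2.0.0e, HTSeq and the mm10 build. Which annotation, strand setting and counting mode HTSeq used is not given in the sources used here, so antisense and overlapping genes cannot be told apart. The 5 summary lines and an entry for unknown genes were kept out of totals and tests. Genes were filtered with filterByExpr (minimum count 10, minimum total 15), scaled by TMM, and compared by group alone in a robust, two-sided quasi-likelihood F test (edgeR 4.0.16, R 4.3.3). The SE is the log2 fold change divided by the square root of F. At these depths 3 counts correspond to 0.0654 to 0.0788 CPM. Positions, lengths and coding sequences come from GENCODE M21 (GRCm38), and near-identical stretches from blastn 2.17.0 against its transcripts. The alternatives changed the scaling (RLE, upper quartile, library totals), and used 2 other low-count filters, DESeq2 1.42.0, limma-voom (limma 3.58.1), a replicate block, a threshold of 0.01, and leaving out libraries.

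The members, gene lists, isoenzyme pairs and tests were chosen with earlier results of these data known. All 39 members are described. Of the further pathway genes, each list's most abundant passed gene in each direction and its largest passed change are named. Same-numbered IP and input libraries share a lane number in the labels. Across genes, the correlation of same-numbered deviations from group means was 0.249, 0.0964 and 0.113. Between differently numbered IP and input libraries it was lower, from -0.166 to 0.0255. No library was a copy of another (chi-square per degree of freedom 27.2 to 85.0 within groups).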

Additional observations from a re-analysis of the deposited data

How the results depend on the processing

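Over 16 alternatives, the 3 shuttle enzymes kept their calls, and so did 22 of the 28 genes that rose and Eno1 and Suclg2 among those that fell. With the replicate block 28 members were higher and 3 lower, and no member's call changed. Over all 17197 tested genes, the block gave 4811 higher and 4879 lower. At a threshold of 0.01, 6 glycolytic genes were higher and 1 mitochondrial gene was lower. Of all 17197 tested genes, 3042 were higher and 3414 lower at that threshold. The glycolytic median moved to 0.18 with upper-quartile scaling. Leaving out single libraries gave 1 to 2 glycolytic genes lower, the second being Hk2 without IP replicate 2, and 23 to 28 members higher. Those fits tested 17532 to 17834 genes and called 3721 to 4384 higher and 4164 to 4783 lower.

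The signs of 5 genes that did not pass depended on the setting. With upper-quartile scaling Pfkl stood at -0.12, Pfkp at -0.016, Gapdh at -0.069 and Ldha at -0.11, and with library totals alone at -0.11, -0.0047, -0.054 and -0.092. Pfkl was -0.0029 with a minimum count of 50, and Aldoc -0.017 without IP replicate 2 and input replicate 3. Leaving out single libraries gave -0.078 to 0.088 for Pfkl, -0.055 to 0.18 for Ldha and -0.096 to 0.20 for Gapdh. The cause was not tested. Few assigned reads limit Hk2, Eno1 and Suclg2, which had under 300 in every library. Near-identical copies elsewhere cover 85.6% of the Eno1 transcript and 38.7% of the Suclg2 transcript, and none was found for Hk2. The part of these copies in the low counts was not tested.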
